A study of Mus musculus with 8 samples.

Results

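The Beclin and autophagy machinery was followed here as 37 genes, the set that builds autophagosomes, loads them with cargo and marks mitochondria for removal, in medulloblastomas of the mouse with and without the anti-apoptotic gene Bcl2l1. The members were given as a list of gene symbols, without use of measured values. For each one, the probe set annotated with that symbol alone was taken, and of several the brightest on average was kept. Of the 37 genes, 35 had such a probe set among 22180 genes in all, and all 35 passed the filter on dim signals that left 15526 genes for testing. Optn was not analysed here, and neither was Bnip3l, which the annotation names only together with a second symbol.

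Tumours were harvested at postnatal day 15 (age 15 days) from untreated mice, 4 with the genotype Math1-Cre/SmoM2/Bcl2l1 f/f and 4 controls with the genotype Math1-Cre/SmoM2. Both groups thus carry the Math1-Cre driver and the activated Smoothened allele SmoM2, and only the first carries floxed Bcl2l1. Math1 (Atoh1) is active in cerebellar granule neuron precursors and their lineage, so Cre is not directed to vessels, microglia or other cells of the tumour bulk, which keep Bcl2l1. Total RNA of each tumour was hybridised to an Affymetrix whole-transcript array, 1 per animal according to the design text. A second label on Bcl2l1 status reads the same on control and deleted samples, so the titles and genotypes were used.

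Autophagy encloses cytoplasm in a double membrane and delivers it to the lysosome. The ULK kinase complex starts the process. A lipid kinase complex built around beclin 1 then marks the site with a phosphoinositide, and a pair of ubiquitin-like conjugation reactions attaches LC3 and GABARAP proteins to the growing membrane, where cargo receptors dock. BCL-xL, the product of Bcl2l1, is known to bind the BH3 domain of beclin 1, and the mitophagy receptors BNIP3 and BNIP3L are themselves distant BH3 relatives of the BCL2 family. Much of this pathway is controlled by lipidation, phosphorylation and protein turnover, which an mRNA array does not read. In bulk tumour RNA, fewer cells of a type and less RNA per cell cannot be told apart.

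Values are log2 RMA expression values as deposited. Bcl2l1 itself stood at 5.46, 5.46, 5.69 and 5.32 on Bcl2l1-deleted replicates 1 to 4 and at 6.88, 6.57, 6.93 and 6.98 on control replicates 1 to 4, so the groups did not overlap and followed the titles. Whether its probe set (17392991) lies inside the deleted part was not analysed here. Among the markers of granule neuron progenitors, 12 of 12 were measured and 0 passed in either direction, with list means of 10.16 to 10.30 on the Bcl2l1-deleted arrays and 9.75 to 10.32 on the controls, and Atoh1, Gli1 and Ptch1 had means of 11.63, 8.18 and 11.08 in the Bcl2l1-deleted tumours and 11.17, 8.27 and 11.09 in the controls. Control replicate 2 stood apart. Its correlations with the other arrays were 0.920 to 0.948, against at least 0.966 for all remaining pairs, its interquartile range over genes was 2.40, against 3.29 to 3.66 elsewhere, and the median of its chemosensory receptor genes, a gauge of background in brain, was 3.60, against 2.79 to 3.09. Results are therefore given with and without that array. Over the tested genes, the median fitted difference between the genotypes was 0.17 on the log2 scale (0.08 without control replicate 2). A relative log2 change below is the fitted difference, Bcl2l1-deleted minus control, minus that median, while its SE and adjusted p belong to the fitted difference tested against 0.

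None of the 35 measured autophagy genes passed an adjusted p of 0.05 (limma, Benjamini-Hochberg over 15526 genes): 0 were higher and 0 lower in the Bcl2l1-deleted tumours. Over all tested genes 6.52% passed, 4.93% higher and 1.6% lower. At an unadjusted p under 0.05 (limma), 7 members were higher and 0 lower, or 20%, where 30.5% of all tested genes passed at that level, 23.1% higher and 7.32% lower. The groups did not overlap for 8 members, all higher in the Bcl2l1-deleted tumours, which is 22.9% of the members. Of all tested genes 23.4% did not overlap, 19% higher and 4.46% lower. With each array centred on the tested genes this turned round: 1 member (Atg3) did not overlap higher and 8 lower, beside 7.25% and 12.9% of all tested genes. With each array centred on its median over all probe sets it did not: 12 members did not overlap higher (34.3%) and 0 lower, beside 29.2% and 2.07% of all tested genes. On the deposited scale the members' shares were thus near the background or below it. The lower share after centring on the tested genes was above it (22.9% of members). Their median relative change was 0.00, from -0.50 for Map1lc3a to 0.65 for Atg3, with 18 members above the median tested gene and 17 below it. The lowest adjusted p of a member was 0.0697, for Atg4a.

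Without control replicate 2, the members without overlap split in both directions. Of the 35 members, 1 passed higher (Atg3) and 1 lower (Map1lc3a), or 5.71%, beside 13.5% of all tested genes in the same fit (8.95% higher and 4.57% lower). The same 8 members did not overlap higher (22.9%, all tested genes 20.2%), and 7 members now did not overlap lower (20%, all tested genes 8.48%). At an unadjusted p under 0.05, 7 members were higher and 4 lower, against 22.3% and 10.4% of all tested genes. The 7 lower members were 4 of the 5 genes of the initiation complex (Ulk1, Ulk2, Rb1cc1 and Atg13), the lipid scramblase gene Atg9a and both LC3 genes, Map1lc3a and Map1lc3b. The 8 higher members were 3 conjugation genes (Atg3, Atg10 and Atg12), 2 of the 4 proteases that process LC3 (Atg4a and Atg4b), Uvrag, Wipi1 and Atg101. Roles were mixed, since Atg101 belongs to the initiation complex, and Wipi1 and Atg9a were placed in the same role group. Ulk2 counted as lower by a narrow margin, 8.589 on Bcl2l1-deleted replicate 3 against 8.5938 on control replicate 1 (adjusted p = 0.558). Its relative change switched sign in 7 of 21 alternative settings.

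**Figure D1:**
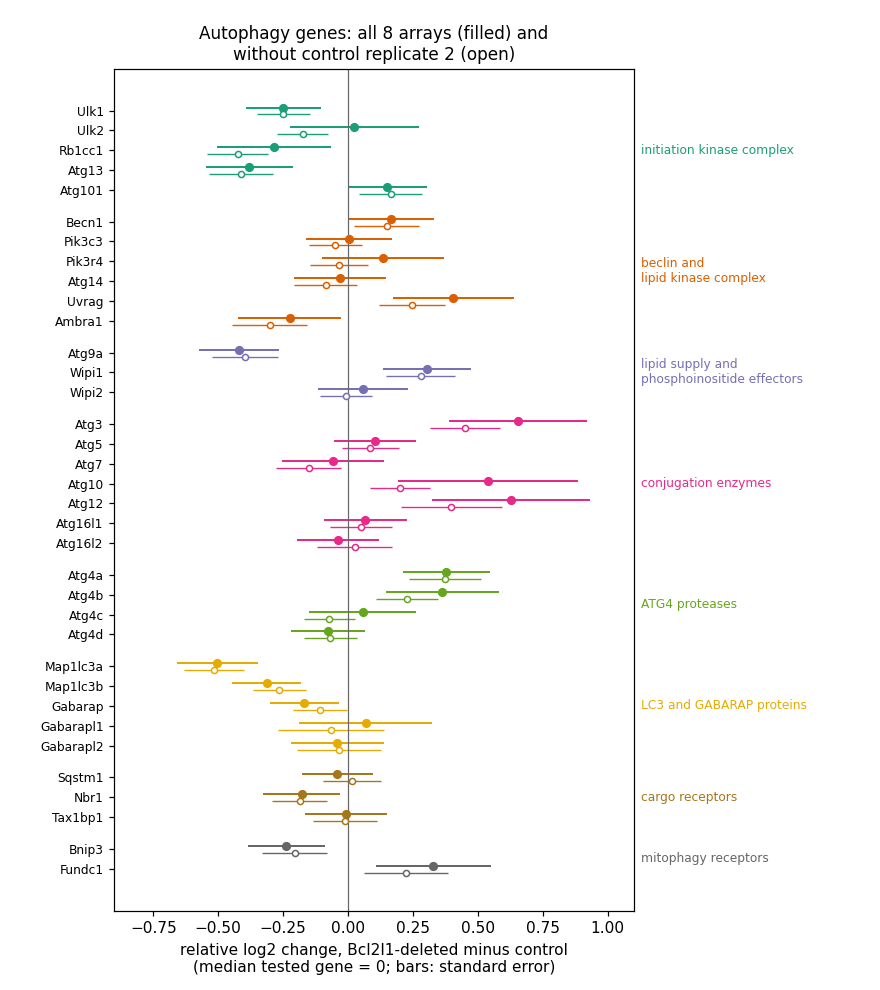
Relative log2 change (x axis, Bcl2l1-deleted minus control, with 0 at the median tested gene) of the 35 measured autophagy genes, grouped by role, with standard errors as bars. Filled points use all 8 arrays and open points leave out control replicate 2. Atg3 lies farthest to the right at 0.65 and Map1lc3a farthest to the left at -0.50, and the bars of most genes cross or come close to 0.

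The initiation complex consists of the kinases ULK1 and ULK2, the scaffold FIP200 (Rb1cc1) and the adaptors ATG13 and ATG101. None of its 5 genes passed, and their median relative change was -0.25 (lowest adjusted p = 0.175). These genes are described because of the split above, that is, after their values were seen. Ulk1 stood at 9.12, 9.08, 9.04 and 9.07 on Bcl2l1-deleted replicates 1 to 4 and at 9.15, 8.89, 9.31 and 9.26 on control replicates 1 to 4. Control replicates 1, 3 and 4 thus lay above every Bcl2l1-deleted array and control replicate 2 below them all. Its relative change was -0.25 (SE 0.14, adjusted p = 0.729), and -0.25 (SE 0.10, adjusted p = 0.289) without that array.

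Rb1cc1, the scaffold that holds the complex together, stood at 7.25, 7.27, 7.55 and 7.27 on the Bcl2l1-deleted arrays and at 7.75, 6.76, 7.69 and 7.59 on the controls. Its relative change of -0.28 (SE 0.22, adjusted p = 0.745) became -0.43 (SE 0.12, adjusted p = 0.0814) without control replicate 2. Atg13, the adaptor that links the kinases to the scaffold, had a like pattern, with 8.06, 7.88, 8.13 and 7.78 on the Bcl2l1-deleted arrays and 8.42, 7.81, 8.24 and 8.22 on the controls. For Atg13 the relative change was -0.38 (SE 0.17, adjusted p = 0.407), and -0.41 (adjusted p = 0.105) without control replicate 2. Ulk2 was tight on 7 arrays, at 8.47 to 8.59 on the Bcl2l1-deleted arrays and 8.59 to 8.63 on control replicates 1, 3 and 4, and stood at 7.47 on control replicate 2. Atg101 encodes the partner that stabilises ATG13. It stood at 7.63, 7.42, 7.46 and 7.47 on the Bcl2l1-deleted arrays, each above the controls at 7.28, 6.94, 7.41 and 7.05, with a relative change of 0.15 (SE 0.15, adjusted p = 0.175).

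Becn1 encodes beclin 1, the subunit that BCL-xL can hold. It stood at 7.72, 7.82, 7.98 and 7.66 on Bcl2l1-deleted replicates 1 to 4, a mean of 7.80 ± 0.14 (SD, n = 4), and at 7.74, 7.14, 7.43 and 7.52 on control replicates 1 to 4, a mean of 7.46 ± 0.25 (SD, n = 4). Control replicate 1 reached into the range of the Bcl2l1-deleted tumours, so the groups overlapped, and the lowest value was again that of control replicate 2. The fitted difference was 1.26-fold (95% confidence interval 0.983 to 1.63), a relative log2 change of 0.17 (SE 0.16, adjusted p = 0.188). Without control replicate 2 it was 0.15 (SE 0.13, adjusted p = 0.231). Over the 21 alternative settings the relative change of Becn1 stayed between 0.04 and 0.30, and its adjusted p between 0.0999 and 0.711. A further probe set that the annotation gives to Becn1 together with another symbol was not used.

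Among the partners of beclin 1, none of the 6 genes of the complex, Becn1 included, passed (median relative change 0.07). The catalytic subunit Pik3c3 (VPS34) had a relative change of 0.00 (SE 0.17, adjusted p = 0.477) and its regulatory subunit Pik3r4 (VPS15) one of 0.14 (SE 0.23, adjusted p = 0.377). Atg14, which directs the complex to autophagosome formation, lay at -0.03 (SE 0.18, adjusted p = 0.595), and Ambra1, a beclin 1 activator, at -0.23 (SE 0.20, adjusted p = 0.871). Uvrag, the alternative partner that directs the kinase to endosomes and autophagosome maturation, was the one gene of the complex without overlap. It stood at 8.10, 7.90, 7.68 and 7.77 on the Bcl2l1-deleted arrays and at 7.58, 6.55, 7.44 and 7.57 on the controls. Uvrag had a relative change of 0.40 (SE 0.23, adjusted p = 0.128) with all arrays and of 0.25 (SE 0.13, adjusted p = 0.108) without control replicate 2.

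Of the genes for membrane supply and for the phosphoinositide effectors, Atg9a encodes the scramblase whose vesicles seed the membrane, and WIPI proteins read the lipid made by VPS34. Wipi1 stood at 6.78, 7.07, 6.62 and 6.77 on the Bcl2l1-deleted arrays and at 6.50, 5.99, 6.30 and 6.53 on the controls, again without overlap. Its relative change was 0.30 (SE 0.17, adjusted p = 0.0999), and 0.28 (adjusted p = 0.0953) without control replicate 2. Wipi2, the paralogue that recruits the conjugation machinery, had a relative change of 0.06 (SE 0.17, adjusted p = 0.371), with 8.68 to 8.79 on the Bcl2l1-deleted arrays and 8.05 to 8.71 on the controls. Atg9a lay at 6.99, 7.25, 7.47 and 7.18 on the Bcl2l1-deleted arrays and at 7.53, 7.28, 7.51 and 7.57 on the controls. For Atg9a the relative change was -0.42 (SE 0.15, adjusted p = 0.285), and it was -0.40 (adjusted p = 0.128) without control replicate 2.

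With all 8 arrays, the 3 largest relative changes in size among the members were those of the conjugation genes Atg3, Atg12 and Atg10. That order did not hold without control replicate 2, where Map1lc3a (-0.52) came first, or with the receptor median as a covariate, where Atg3, Atg12 and Atg10 stood at 0.23, 0.13 and -0.12 and Rb1cc1 at -0.59. ATG7 is the E1-like enzyme of both reactions, ATG10 joins ATG12 to ATG5, ATG16L1 anchors that conjugate on the membrane, and ATG3 is the E2-like enzyme that hands LC3 to its lipid. None of the 7 genes passed. All 7 had a fitted difference above 0, as did 67.4% of all tested genes, and 5 had a relative change above 0. The groups of 3 did not overlap, beside 19% of all tested genes higher without overlap. Atg3 stood at 9.77, 9.71, 9.74 and 9.50 on Bcl2l1-deleted replicates 1 to 4 (mean 9.68 ± 0.12, SD, n = 4) and at 9.39, 7.97, 9.11 and 8.94 on control replicates 1 to 4 (mean 8.85 ± 0.61, SD, n = 4). Every control was below every Bcl2l1-deleted array, and control replicate 2 lay farthest below. The fitted difference of Atg3 was 1.77-fold (95% confidence interval 1.18 to 2.66), a relative log2 change of 0.65 (SE 0.26, adjusted p = 0.0783). Without control replicate 2 Atg3 rose by a relative 0.45 (SE 0.13, adjusted p = 0.0336), a smaller difference with a smaller error. Atg3 also passed without control replicate 1 (relative change 0.80, adjusted p = 0.0368).

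Atg12, the ubiquitin-like protein joined to ATG5, stood at 8.15, 7.78, 8.01 and 7.75 on the Bcl2l1-deleted arrays and at 7.72, 6.16, 7.65 and 6.96 on the controls. The nearest values of the groups, 7.75 and 7.72, all but touched. Atg12 had a relative change of 0.63 (SE 0.31, adjusted p = 0.113), and of 0.40 (SE 0.19, adjusted p = 0.121) without control replicate 2. Atg10 depended more on that array than any of the other conjugation genes: it stood at 7.36, 7.53, 7.53 and 7.44 on the Bcl2l1-deleted arrays and at 7.35, 5.47, 7.13 and 7.07 on the controls, and its relative change of 0.54 (SE 0.35, adjusted p = 0.187) became 0.20 (SE 0.12, adjusted p = 0.122) without it. Atg5, Atg7 and Atg16l1 overlapped between the groups, with relative changes of 0.10, -0.06 and 0.07 (adjusted p = 0.246, 0.704 and 0.319). Atg16l2, a less studied paralogue of Atg16l1, lay at -0.04 (adjusted p = 0.571).

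**Figure D2:**
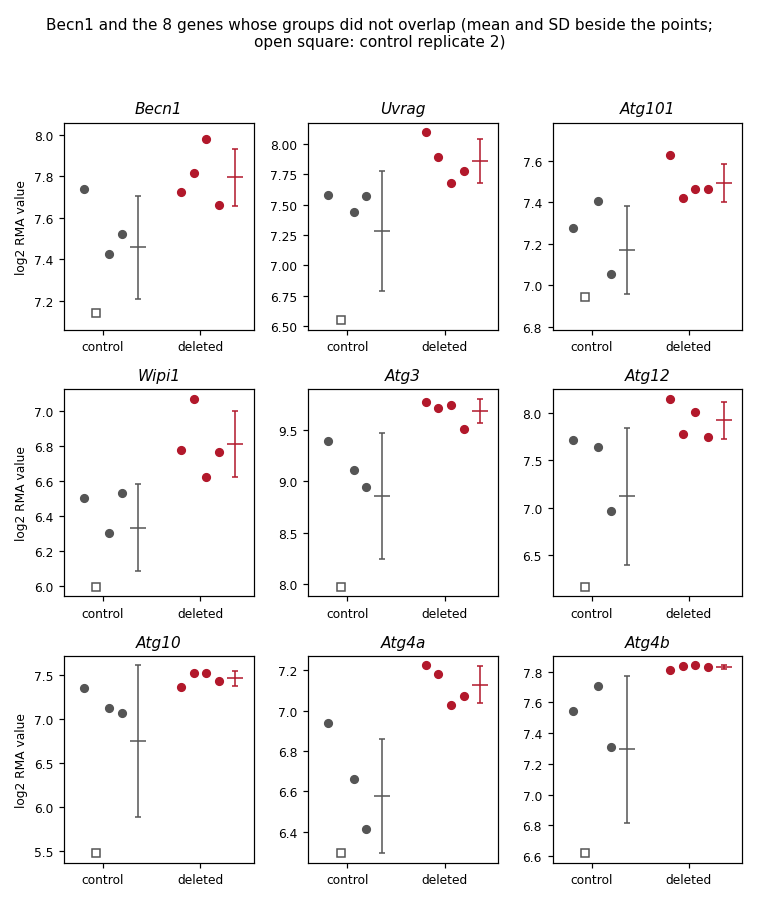
Log2 RMA value (y axis, a scale of its own in each panel) of Becn1 and of the 8 genes whose groups did not overlap, on each of the 4 control and 4 Bcl2l1-deleted arrays, with mean and SD beside the points. The open square is control replicate 2, the lowest point in all 9 panels, and for Atg10 it lies at 5.47 while the other controls lie between 7.07 and 7.35.

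The promoters of the autophagy genes were searched for the E-box CACGTG, the core of the sites bound by the TFEB family of autophagy and lysosome regulators, for its 8-base form TCACGTGA and for a 10-base form with a further G before and C after. Each motif is its own reverse complement, so a search of one strand covers both, and every longer match contains the shorter one. Windows of 250 bases before to 50 after the transcription start (RefSeq, GRCm38.p6) were used for 30 of the 37 genes, 34 windows in all. CACGTG was found in 5 of the 34 (14.7%), those of Atg3, Atg5, Atg7, Atg14 and Bnip3, and in 7.15% of all 32851 windows. TCACGTGA was found once, in the Atg3 window (2.94%, all windows 0.974%), and the longest form in none (all windows 0.326%). The Atg3 window is shown because it belongs to the member with the largest difference over all 8 arrays and holds the E-box on 2 occasions, starting 94 and 71 bases before the start site, the second within TCACGTGA. The Atg5, Atg7 and Bnip3 stretches are shown for comparison around their single match, which starts 14, 132 and 108 bases before the start. In Atg14 the match begins at the last base before the start and is not printed. Capitals mark CACGTG, and each sequence runs 5′ to 3′ on the strand of its gene, covering chr16:45158579-45158828 (+) for Atg3, chr10:44268279-44268338 (+) for Atg5, chr6:114670936-114670995 (+) for Atg7 and chr7:138909582-138909641 (-) for Bnip3.
Atg3: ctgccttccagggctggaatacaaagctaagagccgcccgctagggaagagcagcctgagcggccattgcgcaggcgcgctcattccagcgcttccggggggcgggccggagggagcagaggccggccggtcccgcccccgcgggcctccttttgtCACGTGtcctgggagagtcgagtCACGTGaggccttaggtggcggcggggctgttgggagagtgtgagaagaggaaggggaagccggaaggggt
Atg5: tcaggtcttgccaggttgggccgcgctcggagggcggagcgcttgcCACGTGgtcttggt
Atg7: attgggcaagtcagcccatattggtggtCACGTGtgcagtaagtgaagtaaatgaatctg
Bnip3: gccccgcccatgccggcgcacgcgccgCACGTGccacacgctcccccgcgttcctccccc
Atg5, Atg7 and Bnip3, which share the motif with Atg3, had relative changes of 0.10, -0.06 and -0.24, so the 4 genes shown did not share one direction. Of the TFEB family genes, Tfeb, Tfe3 and Mitf had relative changes of -0.01, 0.08 and 0.05 (adjusted p = 0.536, 0.419 and 0.340). Without control replicate 2 these were 0.20, -0.06 and 0.22 (adjusted p = 0.206, 0.866 and 0.117). Tfeb was dim, with means of 4.75 in the Bcl2l1-deleted tumours and 4.59 in the controls, close to the dim filter at 4.38.

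The 4 ATG4 proteases trim the LC3 and GABARAP precursors and free them from the membrane again. Atg4a stood at 7.23, 7.18, 7.03 and 7.07 on the Bcl2l1-deleted arrays (mean 7.13 ± 0.09, SD, n = 4) and at 6.94, 6.29, 6.66 and 6.41 on the controls (mean 6.58 ± 0.29, SD, n = 4). The groups did not overlap, and here control replicate 4 lay almost as low as control replicate 2. The relative change of Atg4a was 0.38 (SE 0.17, adjusted p = 0.0697), and leaving out control replicate 2 scarcely moved it (0.37, SE 0.14, adjusted p = 0.0573). Atg4a passed without control replicate 1 (relative change 0.46, adjusted p = 0.0285). Atg4b, the most active of the proteases on LC3, was very even among the Bcl2l1-deleted tumours, at 7.81, 7.84, 7.84 and 7.83, and uneven among the controls, at 7.54, 6.62, 7.71 and 7.31. Its relative change was 0.36 (SE 0.22, adjusted p = 0.130), and 0.23 (SE 0.12, adjusted p = 0.107) without control replicate 2. Atg4c and Atg4d overlapped, with relative changes of 0.06 and -0.08 (adjusted p = 0.451 and 0.652).

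LC3 and GABARAP proteins are the substrates of these enzymes and coat the autophagosome once lipidated. Of the 5 LC3 and GABARAP genes, 0 passed, none was without overlap, and the median relative change was -0.17. Map1lc3a, which encodes LC3A, stood at 8.15, 7.93, 7.92 and 7.91 on the Bcl2l1-deleted arrays (mean 7.98 ± 0.12, SD, n = 4) and at 8.28, 8.01, 8.51 and 8.44 on the controls (mean 8.31 ± 0.22, SD, n = 4). Only Bcl2l1-deleted replicate 1 and control replicate 2 crossed. The relative change of Map1lc3a was -0.50 (SE 0.16, adjusted p = 0.179). Without control replicate 2 Map1lc3a fell by a relative 0.52 on the log2 scale (SE 0.12, adjusted p = 0.0407), and it also passed as lower when each array was centred on the tested genes (adjusted p = 0.0309), after quantile normalization (0.0453) and with array weights (0.0206).

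Map1lc3b, which encodes the widely used autophagosome marker LC3B, stood at 11.31, 11.32, 11.27 and 11.27 on the Bcl2l1-deleted arrays and at 11.44, 11.32, 11.58 and 11.41 on the controls. The groups met only at 11.32, the value of both control replicate 2 and Bcl2l1-deleted replicate 2. Its relative change was -0.31 (SE 0.13, adjusted p = 0.473), and -0.26 (SE 0.10, adjusted p = 0.248) without control replicate 2. Gabarap had values between 11.26 and 11.48 on all 8 arrays, with a fitted difference of 0.00 (95% confidence interval 0.819-fold to 1.23-fold) and a relative change of -0.17 (adjusted p = 0.986). A second, dimmer Gabarap probe set had group means of 8.81 and 9.10, a difference of -0.29 where the first had 0.00, so the pair of probe sets did not give the same difference. Gabarapl1 varied more within the control group than the other LC3 and GABARAP genes and had the widest range of them among the Bcl2l1-deleted arrays, from 8.91 to 9.46 on the Bcl2l1-deleted arrays and from 8.18 to 9.49 on the controls, with a relative change of 0.07 (SE 0.26, adjusted p = 0.531). Gabarapl2 lay at 7.23 to 7.51 on the Bcl2l1-deleted arrays and 6.92 to 7.59 on the controls, with a relative change of -0.04 (SE 0.18, adjusted p = 0.626).

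**Figure D3:**
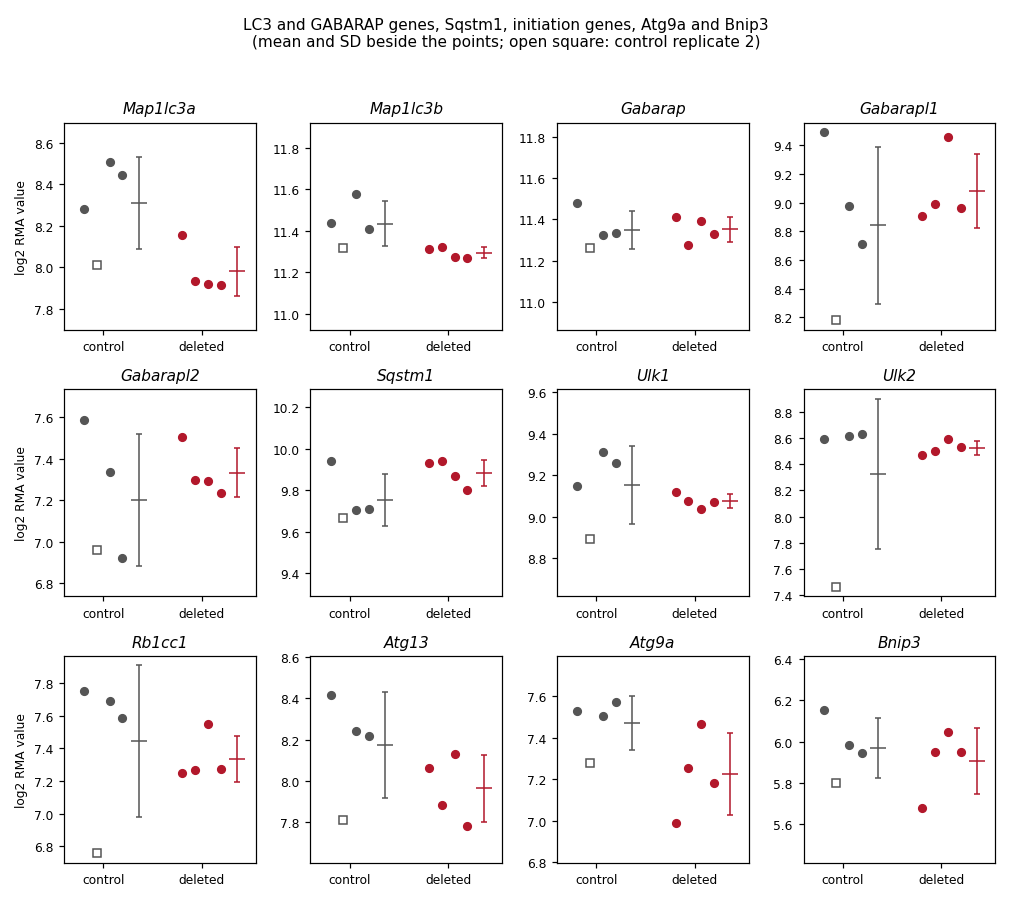
Log2 RMA value (y axis, a scale of its own in each panel) of the LC3 and GABARAP genes, Sqstm1, 4 initiation genes, Atg9a and Bnip3 on the 4 control and 4 Bcl2l1-deleted arrays, with mean and SD beside the points and control replicate 2 as an open square. For Ulk1, Ulk2, Rb1cc1, Atg13, Atg9a, Map1lc3a and Map1lc3b the other 3 controls lie above every Bcl2l1-deleted array.

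Cargo receptors bind ubiquitin on one side and LC3 on the other. Sqstm1, whose product p62 is both a receptor and a substrate of autophagy, stood at 9.93, 9.94, 9.87 and 9.80 on the Bcl2l1-deleted arrays and at 9.94, 9.66, 9.70 and 9.71 on the controls. Control replicates 2, 3 and 4 lay below all the Bcl2l1-deleted arrays, and control replicate 1 lay at their top. The relative change of Sqstm1 was -0.04 (SE 0.14, adjusted p = 0.521), with a fitted difference of 1.09-fold (95% confidence interval 0.888 to 1.35). Nbr1 and Tax1bp1, receptors of the same kind, had relative changes of -0.18 and -0.01 (adjusted p = 0.979 and 0.481), and their groups overlapped.

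Of the mitophagy receptors, Bnip3, a hypoxia-inducible BH3 family member of the outer mitochondrial membrane, stood at 5.68, 5.95, 6.05 and 5.95 on the Bcl2l1-deleted arrays and at 6.15, 5.80, 5.98 and 5.95 on the controls. These ranges lay over each other, and the relative change was -0.24 (SE 0.15, adjusted p = 0.783). Fundc1, an outer membrane receptor without a BH3 domain, stood at 6.45, 6.13, 6.04 and 6.17 on the Bcl2l1-deleted arrays and at 5.79, 5.12, 6.22 and 5.65 on the controls. Control replicate 3 reached above 3 of the Bcl2l1-deleted arrays. Its relative change was 0.33 (SE 0.22, adjusted p = 0.156), and 0.22 (SE 0.16, adjusted p = 0.218) without control replicate 2.

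Across arrays, most members were lowest on 1 control array, as were most tested genes, a pattern that the genotype does not give. Control replicate 2 held the lowest value of 28 of the 35 members (80%), beside 54.6% of all tested genes, and the highest value of none (all tested genes 14.7%). The median member lay 0.49 below its own mean there, and the median tested gene 0.37 below. On the other 7 arrays the median deviation of the members was at most 0.12 in size. Relative to the median tested gene, members on control replicate 2 lay on both sides of their means. They ranged there from -1.27 for Atg10 to 0.32 for Map1lc3b, with a median of -0.12. The within-group SD of the median member was 0.21, against 0.28 for the median tested gene.

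**Figure D4:**
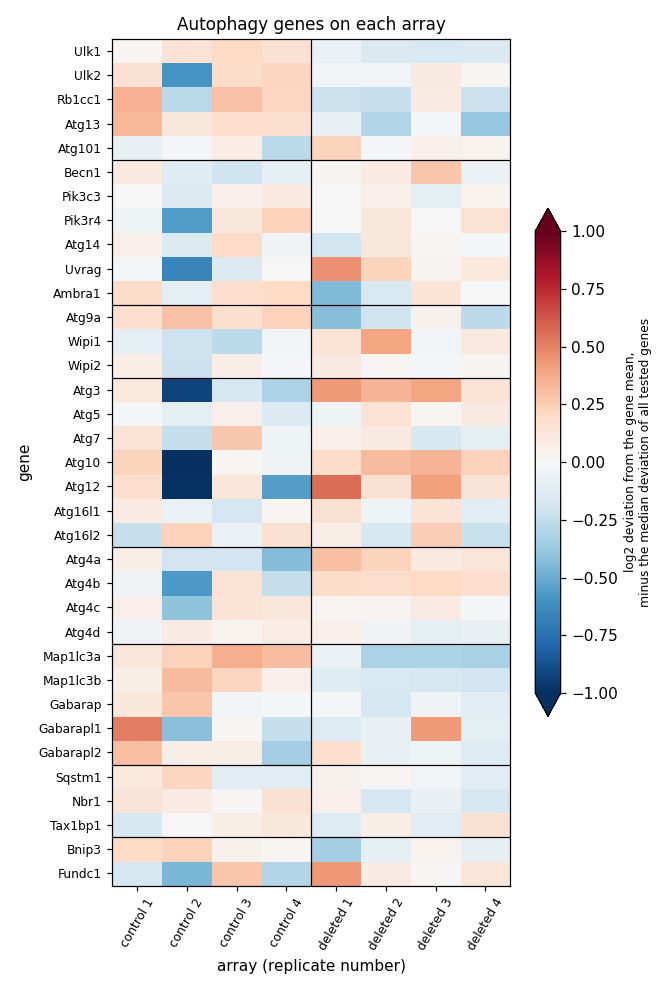
Log2 deviation of each autophagy gene (rows, grouped by role in the order of the text) from its mean over the 8 arrays (columns), after subtracting the median deviation of all tested genes on that array. Blue is lower and red higher, and colours saturate at a deviation of 1 in size. Atg3, Atg10 and Atg12 are darkest on control replicate 2, where both LC3 genes are above their means on this scale.

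The pathway was also followed outside the 37 members in 56 further genes, of which 52 were tested. Of these, 1 was higher and 0 were lower at an adjusted p of 0.05 (1.92%, all tested genes 6.52%), and their median relative change was 0.05. The gene that passed was Tmem41b, a scramblase of the endoplasmic reticulum required for autophagosome formation. Tmem41b stood at 8.53, 8.67, 8.51 and 8.44 on the Bcl2l1-deleted arrays and at 8.30, 7.16, 7.82 and 7.53 on the controls, without overlap. It rose by a relative 0.66 (SE 0.22, adjusted p = 0.0491), and by 0.57 (adjusted p = 0.0379) without control replicate 2. That call was close to the threshold and held in 9 of 21 alternative settings, with adjusted p-values from 0.00721 to 0.183. It was lost without Bcl2l1-deleted replicates 1 to 4 in turn (adjusted p = 0.138, 0.141, 0.0930 and 0.0976) and without control replicate 3 or 4 (0.0709 and 0.119).

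The next 3 by p-value were Vps18, a tethering subunit for fusion with the lysosome, the inner membrane mitophagy receptor Phb2 and the WIPI paralogue Wdr45b. Their relative changes were 0.29, 0.34 and 0.27 (adjusted p = 0.0964, 0.109 and 0.118). By step of the pathway, 0 of 15 upstream regulators, 1 of 9 membrane and lipid kinase genes, 0 of 15 genes of fusion with the lysosome and 0 of 13 selective receptors and mitophagy genes passed, with median relative changes of 0.05, 0.01, 0.11 and -0.01. Mtor, the kinase that restrains the ULK complex, lay at -0.10 (adjusted p = 0.824), and Prkaa1, a catalytic subunit of the kinase AMPK, which activates it, at 0.48 (adjusted p = 0.139). The other catalytic subunit gene, Prkaa2, lay at 0.18 (adjusted p = 0.351). Leaving out control replicate 2 gave -0.17 for Mtor, 0.26 for Prkaa1 and 0.02 for Prkaa2 (adjusted p = 0.747, 0.0954 and 0.711). Without control replicate 2, 2 of the 52 were higher and 1 lower, or 5.77% beside 13.5% of all tested genes. These were Tmem41b, the fusion gene Vamp8 (relative change 0.38, adjusted p = 0.0363) and, lower, the receptor gene Calcoco1 (-0.62, adjusted p = 0.0407).

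Markers of several cell types, differentiating granule neurons included, differed between the same groups, and their part in the values above was not tested. Of 14 tested microglia markers 7 were higher (list means 7.86 to 8.09 on the Bcl2l1-deleted arrays, 6.57 to 7.49 on the controls), of 8 astrocyte markers 3 (9.50 to 9.95 against 8.40 to 9.60), of 6 endothelial markers 4 (7.14 to 7.28 against 6.25 to 6.64) and of 6 fibroblast markers 4 (7.26 to 7.88 against 6.06 to 6.65), with none lower. Of 12 markers of differentiating granule neurons 7 were lower (6.61 to 7.74 against 7.84 to 8.84), of 9 oligodendrocyte markers 2 (6.25 to 7.68 against 7.32 to 8.67) and of 5 choroid plexus markers 2 (5.18 to 5.74 against 6.81 to 7.20), with none higher. Of 4 tested Purkinje cell markers 0 passed, with list means spread widely among the Bcl2l1-deleted arrays (5.32 to 9.77 against 8.09 to 9.34 on the controls). Erythroid markers were not analysed here, and of the skeletal muscle markers 2 were bright enough to be tested and 0 passed.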

How the data were processed

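The labels' protocols name a biotin labelling kit for Affymetrix whole-transcript arrays, used on total RNA of 8 tumours. Per the labels, the authors derived the deposited log2 values by RMA in Partek, which corrects background, normalizes arrays and joins probes into probe sets, and which compresses small signals. Its version and options, and a genome build, are not given in the sources used. Of 41345 probe sets, the platform annotation gave 23521 one gene symbol, 1814 several and 16010 none. Entrez identifiers matched 23328 of the 23521 in a RefSeq table (GRCm38.p6), which changed 0 symbols. Of several probe sets the brightest was kept. The dim filter at the 30th percentile of mean signal (4.38) removed 6654 genes.

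The test was limma's moderated linear model (lmFit, eBayes, limma 3.58.1, R 4.3.3), two-sided and without covariates, with Benjamini-Hochberg adjustment. On simulated data of 15526 genes in this layout, Bcl2l1-deleted against control, the fit recovered 74% of 100 genes changed by 1 log2 unit and 99% of 100 changed by 2, with 10 false calls. Recovery of differences below 1 log2 unit was not tested. The largest fitted difference of a member was 0.83, for Atg3, so these percentages do not cover the members. The number of arrays limits the precision, and p-values rest on the spread between animals. No batch or scan date was given.

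The member list used no measured values, but it, the other gene lists and the tests were set with earlier results of these data known. Values on every array are given for Becn1, the LC3 and GABARAP genes, Sqstm1, the mitophagy receptors and the 6 further members with the smallest p; Atg10, Atg101, the initiation genes and Atg9a were added after their values were seen. Of the other autophagy genes, those past the threshold or the 4 with the smallest p are named. Mtor, Prkaa1, Prkaa2, Tfeb, Tfe3, Mitf, Vamp8 and Calcoco1 were added afterwards. Alternatives were other dim filters, priors, normalizations, covariates, probe set choices, array weights, a replicate block and leaving out each array.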

Additional observations from a re-analysis of the deposited data

Results flagged for a closer look

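In 70 groups of 4 arrays for the members and 2 for Bcl2l1, a value was set against its own group by Dixon's test, which chance meets in about 1 of 20 groups, and 12 values stood far from the rest of their group. Of these, 8 were low values of control replicate 2. They were Ulk2 at 7.47 (other controls 8.59 to 8.63), Rb1cc1 at 6.76 (7.59 to 7.75), Pik3c3 at 6.97 (7.49 to 7.56), Uvrag at 6.55 (7.44 to 7.58), Ambra1 at 7.94 (8.58 to 8.61), Wipi2 at 8.05 (8.60 to 8.71), Atg10 at 5.47 (7.07 to 7.35) and Atg4c at 6.07 (6.90 to 6.97). The other control value was Sqstm1 on control replicate 1, high at 9.94 (9.66 to 9.71). On the Bcl2l1-deleted arrays, Rb1cc1 was high on replicate 3 at 7.55 (7.25 to 7.27), Gabarapl1 on replicate 3 at 9.46 (8.91 to 8.99) and Map1lc3a on replicate 1 at 8.15 (7.91 to 7.93).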

How the results depend on the processing

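Of 35 members, 30 passed in none of 21 alternative settings, and Atg3, Atg4a, Wipi1, Map1lc3a and Rb1cc1 passed in at least 1. Members higher numbered 0 in the fit reported and 3 with array weights, and 0 to 2 with single arrays left out (2 without control replicate 1, Atg3 and Atg4a). Of all 15526 tested genes, 2442 were higher with array weights and 1612 without control replicate 1. Members lower numbered 0, and 1 each with quantile normalization, centring on the tested genes, array weights (Map1lc3a each time) and the receptor median as a covariate (Rb1cc1, adjusted p = 0.0395), and 0 to 1 with arrays left out. Of all 15526 tested genes, 284 were lower with quantile normalization and 699 when centred on the tested genes. With array weights 1052 were lower, and with the receptor median 404. The other autophagy genes higher numbered 1, but 3 with array weights and 0 with no dim filter, the robust prior, the receptor median, centring on the tested genes, the Xist level or the replicate block, and 0 to 3 with arrays left out. Those lower numbered 0, but 1 with centring on the tested genes, 2 with array weights, and 0 to 1 with arrays left out. Over all genes 1013 passed, 548 with no dim filter, 3494 with array weights, 200 with the Xist level, and 20 to 2100 with arrays left out. Of the 1013, 765 were higher and 248 lower, but 1337 and 171 with array medians centred, 390 and 699 when centred on the tested genes, and 273 and 404 with the receptor median.

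Members without overlap, a count whose alternatives were chosen after seeing the data, numbered 8 higher and 0 lower, 4 and 4 after quantile normalization (11.4% each way, all tested genes 17.2% and 5.07%) and 1 and 8 when centred on the tested genes (2.86% and 22.9%, all tested genes 7.25% and 12.9%). They numbered 12 and 0 with array medians centred (34.3% and 0%, all tested genes 29.2% and 2.07%), with Becn1 among the 12. With arrays left out they were 8 to 10 and 0 to 7, where 20.2% to 27.9% and 4.97% to 8.48% of all tested genes did not overlap. The balance of higher and lower members without overlap thus differed between settings. The relative change of 15 members changed sign in at least 1 setting, 61 of 735 values in all and none of them called, while 20 members kept theirs. Bcl2l1 passed in all 21 settings. Replicate numbers were not taken to pair the arrays. Deviations of same-numbered arrays correlated at -0.13 to 0.05 and those of other pairs at -0.24 to 0.22. With 4 arrays per group, 1 of them outlying, these correlations cannot exclude pairing. The replicate block gave 508 genes in all and 0 members. The cause of these differences between settings was not tested.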
